A study of Mus musculus with 84 samples.

Results

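Mpdz encodes the multiple PDZ domain protein, also called MUPP1, and is 1 of the 43629 genes counted in this series of ventrolateral striatum from 84 mice. The gene was chosen by its symbol: 1 identifier of the deposited count table, ENSMUSG00000028402, maps to Mpdz, and no measured value entered the choice. It was among the 17071 genes with enough counts to test. The libraries come from the SOT and NOT strains at generation 4 of selection (S4), bred for ethanol preference and withdrawal together. The 44 High Drinker animals (21 females and 23 males) and the 40 Low Drinker animals (18 females and 22 males) were all adult and naive, with no treatment. The labels do not say which of SOT and NOT was the High Drinker line, how many families or replicate lines the animals came from, or their age beyond adult. Animals were therefore treated as independent, the p-values measure the spread between these animals, and selection and drift between the lines cannot be told apart.

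PDZ domains are small folds that bind the carboxy-terminal tail of other proteins, and a scaffold with many of them holds receptors, channels and signalling enzymes together beneath a membrane. MUPP1 is known as a partner of serotonin receptors of the 5-HT2 family, of the GABA-B receptor, of the postsynaptic SynGAP and CaMKII complex, and of claudins and other proteins of tight junctions. In mice, Mpdz on chromosome 4 is known as a candidate gene for the severity of acute withdrawal from ethanol and other sedatives, which is why it is of interest in lines selected on withdrawal. The ventrolateral striatum is built mainly of medium spiny neurons, the GABAergic output cells that carry dopamine receptors.

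In the mm10 build Mpdz lies on the minus strand of chromosome 4, from 81278500 to 81442815, and its counted exons sum to 12437 bases. The transcript Mpdz-201 of the GENCODE annotation has 47 exons and a coding sequence of 6165 bases. Each PDZ domain grips its ligand with a short loop, and the codons of that loop can be searched for in the coding sequence as the 4 successive codons GGN, NTN, GGN and TTN, where N is any base, in frame and on the coding strand alone. The motif finds part of the loops and does not count the domains. It occurred 5 times in Mpdz-201, and the matches are shown because they carry the repeated element that makes this gene a scaffold. Patj, its closest relative and also a multiple PDZ protein of cell junctions, had 3 matches in Patj-202, whose coding sequence is 5502 bases long. Capitals mark the 12 bases of the motif, and 12 bases of coding sequence from GENCODE stand on either side.
Mpdz loop 1: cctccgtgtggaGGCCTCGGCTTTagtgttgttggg
Mpdz loop 2: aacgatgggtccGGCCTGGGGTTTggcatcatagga
Mpdz loop 3: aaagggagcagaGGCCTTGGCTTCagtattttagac
Mpdz loop 4: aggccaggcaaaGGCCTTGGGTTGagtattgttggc
Mpdz loop 5: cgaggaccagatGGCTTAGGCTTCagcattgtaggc
Patj loop 1: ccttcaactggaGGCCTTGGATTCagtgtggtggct
Patj loop 2: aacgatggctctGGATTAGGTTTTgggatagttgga
Patj loop 3: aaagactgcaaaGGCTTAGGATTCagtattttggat

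The Mpdz loops begin at codons 148, 267, 702, 1720 and 1981, counted from the start codon. In mm10 their printed stretches lie on the minus strand at chr4:81385235-81385270, chr4:81383365-81383400, chr4:81361322-81361357, chr4:81292424-81292459 and chr4:81281758-81281793, each inside 1 exon. The Patj loops begin at codons 144, 257 and 697 and lie on the plus strand at chr4:98411060-98411095, chr4:98416667-98416702 and chr4:98469563-98469598. Among the longest coding sequences of 21767 genes, 3.54% held at least 1 match in frame, 0.0965% at least 3 and 0.023% at least 5. The printed stretches of the paralogs shared 25 of 36 bases for loop 1, 26 of 36 for loop 2 and 27 of 36 for loop 3.

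Mpdz was well covered in every library, with a lowest count of 892 and a highest of 3286. Total gene counts per library ran between 22190363 and 41300401, and 5 libraries (1 High Drinker and 4 Low Drinker) stood apart by a lower median correlation with the others, at 0.9627 or below against 0.9684 or above. Over all 84 libraries Mpdz averaged 59.9 ± 14.3 CPM (counts scaled to a library size set by TMM normalization; SD), between 28.9 and 91.7 CPM with a median of 58.2 CPM. Its level exceeded that of 75.3% of the tested genes in CPM and of 49.7% per kilobase of exon, where it averaged 4.82 RPKM. Within the middle 90% of the ordered libraries no step between neighbours was larger than 3.23 CPM, so the values showed no gap between high and low libraries.

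Mpdz was higher in the High Drinker line. The High Drinker libraries ran from 38.2 to 91.7 CPM with a median of 63.9 CPM, against 28.9 to 85.4 CPM with a median of 55.65 CPM in the Low Drinker libraries. The ranges overlapped over most of their length: 42 of 44 High Drinker libraries lay inside the Low Drinker range and 36 of 40 Low Drinker libraries inside the High Drinker range. The mean was 64.2 ± 14.3 CPM (SD, n = 44) in the High Drinker line against 55.2 ± 13.03 CPM (SD, n = 40) in the Low Drinker line. Of the 44 High Drinker libraries, 27 lay above the Low Drinker median, and of the 40 Low Drinker libraries, 33 lay below the High Drinker median. High Drinker animals gave 15 of the 21 highest libraries and 9 of the 21 lowest.

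**Figure D1:**
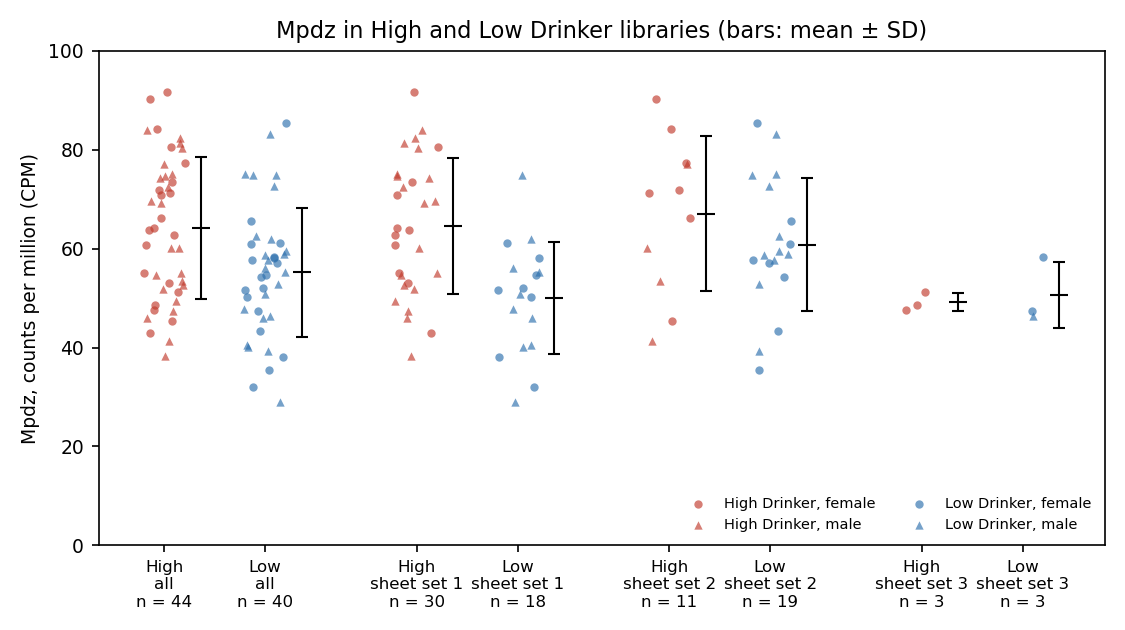
Mpdz in CPM (vertical axis) in each library, High Drinker left of Low Drinker, for all libraries and within each of the 3 sheet sets; circles are females, triangles males, and bars give mean ± SD. The groups overlap throughout, and the gap between their means is widest in sheet set 1, with 64.6 CPM for High Drinker, against 50.0 CPM for Low Drinker.

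In a model with sheet set, sex and line, the log2 fold change of Mpdz, High Drinker over Low Drinker, was 0.26 ± 0.07 (SE, edgeR quasi-likelihood test, adjusted p = 0.0289 over all 17071 genes), a fold of 1.20 with a 95% interval from 1.08 to 1.32. At this threshold 672 genes were called for line, which is 3.94% of those tested, with 317 higher (1.86%) and 355 lower (2.08%) in High Drinker animals. A permutation test of Mpdz alone, with line labels shuffled 100000 times within sex and sheet set, gave a difference of 0.24 in residual log2 CPM (two-sided p = 0.00076).

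Sheet set is a name for the 3 runs of sample numbers in the titles (48, 30 and 6 libraries), which may or may not be laboratory batches. With the sexes pooled, the direction was the same in both larger sets but not the size. In sheet set 1 Mpdz averaged 64.6 ± 13.8 CPM (SD, n = 30) for High Drinker, against 50.0 ± 11.3 CPM (SD, n = 18) for Low Drinker, or 0.37 ± 0.10 on the log2 scale (edgeR, unadjusted p = 0.000387, adjusted p = 0.0641). In sheet set 2 it averaged 67.1 ± 15.6 CPM (SD, n = 11) for High Drinker, against 60.8 ± 13.4 CPM (SD, n = 19) for Low Drinker, or 0.14 ± 0.13 on the log2 scale (edgeR, unadjusted p = 0.29, adjusted p = 0.950). There the sexes differed in direction. Females averaged 72.3 ± 14.5 CPM (SD, n = 7) for High Drinker, against 57.5 ± 14.9 CPM (SD, n = 8) for Low Drinker. Males averaged 58.0 ± 14.9 CPM (SD, n = 4) for High Drinker, against 63.2 ± 12.4 CPM (SD, n = 11) for Low Drinker. The line by sex term within sheet set 2 was 0.44 ± 0.24 and did not pass (edgeR, adjusted p = 0.858). In sheet set 1 the High Drinker mean was higher in females and in males. The change in the line difference, sheet set 2 minus sheet set 1, was -0.23 ± 0.16 and did not pass (edgeR interaction term, added after the data were seen, adjusted p = 0.997). Sheet set 3 held 3 libraries of each line, with means of 49.1 ± 1.82 CPM for High Drinker, against 50.6 ± 6.68 CPM for Low Drinker (SD, n = 3 each). No test was made within it.

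The line difference of Mpdz depended on which library measures the model carried. With the trend of expression with transcript length added (the median log2 CPM of the longest 10% of genes minus that of the shortest 10%, which averaged 5.82 in High Drinker libraries, against 5.73 in Low Drinker libraries), the log2 fold change was 0.16 ± 0.06 and no longer passed (edgeR, adjusted p = 0.153), and 3.25% of genes were called. With a score of medium spiny neuron markers added instead, which averaged 0.17 ± 0.85 in High Drinker libraries, against -0.19 ± 1.04 in Low Drinker libraries (SD), the log2 fold change of Mpdz was 0.30 ± 0.05 (edgeR, adjusted p = 0.000106), and 5.51% of genes were called. With both added, a fit chosen after the data were seen, it was 0.21 ± 0.04 (edgeR, adjusted p = 0.00012). Without the sheet set term it was 0.22 ± 0.07 (edgeR, adjusted p = 0.0633). The part of RNA quality or of the dissection in the line difference was not tested beyond these covariates.

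**Figure D2:**
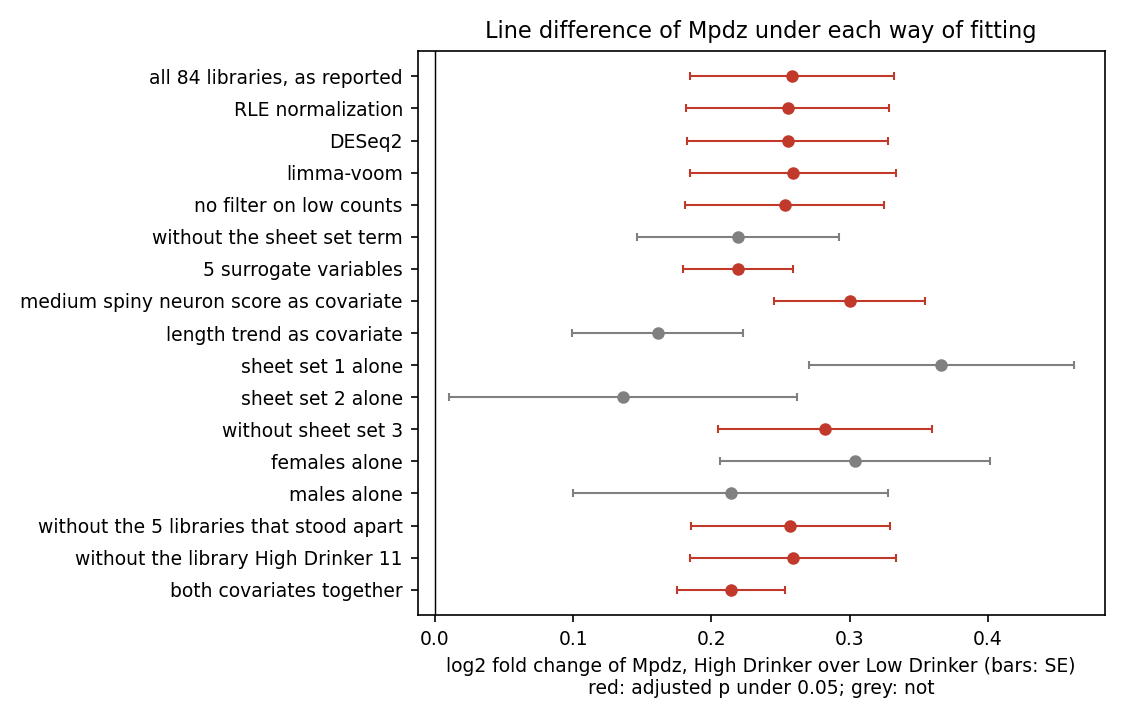
Log2 fold change of Mpdz, High Drinker over Low Drinker (horizontal axis, bars are SE), under each way of fitting; red points passed an adjusted p of 0.05 and grey points did not. All 17 estimates are above 0, between 0.14 in sheet set 2 and 0.37 in sheet set 1.

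Neither sex nor the spread between animals gave a difference that passed. Mpdz averaged 65.4 ± 14.5 CPM (SD, n = 21) in High Drinker females, against 53.5 ± 12.2 CPM (SD, n = 18) in Low Drinker females. The male means were 63.1 ± 14.3 CPM (SD, n = 23) for High Drinker, against 56.5 ± 13.8 CPM (SD, n = 22) for Low Drinker. The log2 fold change of female over male was -0.0023 ± 0.073 (SE, 95% interval -0.14 to 0.14, edgeR, adjusted p = 0.99999), in a comparison that called 0.0996% of genes. The line difference did not pass in females alone (0.30 ± 0.10, edgeR, unadjusted p = 0.00348, adjusted p = 0.258) or in males alone (0.21 ± 0.11, edgeR, unadjusted p = 0.067, adjusted p = 0.337). The line difference of females minus that of males was 0.09 ± 0.14 on the log2 scale (95% interval -0.19 to 0.37, edgeR, adjusted p = 0.892). For this term edgeR, limma-voom and DESeq2 each called 0 genes, and 965 genes had an unadjusted edgeR p under 0.05. The mean absolute deviation of Mpdz from the median of its line and sex was 0.28 log2 CPM in High Drinker animals, against 0.26 log2 CPM in Low Drinker animals, a difference of 0.02 ± 0.05 (limma, adjusted p = 0.980; 0.0117% of genes were called).

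Many genes tracked Mpdz from animal to animal. For this, the effects of sheet set, sex and line were removed from log2 CPM (prior count 2) and Pearson r with Mpdz was computed over the 84 libraries, as a description without a test. Across the other tested genes r had a median of -0.01, with 13.5% above 0.5 and 12.8% below -0.5, so a high r was common and all these genes share the same libraries.

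The highest r belonged to Dock9, an exchange factor that activates the small GTPase Cdc42 (chromosome 14), with r = 0.88. Dock9 ran from 84.2 to 219 CPM with a median of 164 CPM in High Drinker libraries and from 101 to 244 CPM with a median of 165 CPM in Low Drinker libraries. The lines overlapped almost completely, and its log2 fold change was 0.07 (edgeR, adjusted p = 0.578). Clip1, which links growing microtubule ends to membranes (chromosome 5), followed at r = 0.86, and Cdh10, a neuronal cadherin (chromosome 15), at r = 0.86. The other genes of the highest 12 were Zeb2, a zinc finger transcription factor, Sestd1, a phospholipid-binding spectrin-repeat protein, Hdac9, a class II histone deacetylase, and Slitrk1, a synaptic adhesion protein. They also held Oxr1, which protects against oxidative damage, Herc3, a HECT-type ubiquitin ligase, Rasal2, a Ras GTPase-activating protein, Lancl2, a LanC-like protein, and Slc4a8, a sodium-driven chloride/bicarbonate exchanger at r = 0.84.

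At the other end stood Ramp1, a partner of the calcitonin receptor-like receptor that forms the CGRP receptor (chromosome 1), with r = -0.87. Ramp1 ran from 50.1 to 117 CPM with a median of 73.1 CPM in High Drinker libraries and from 47.7 to 123 CPM with a median of 74.0 CPM in Low Drinker libraries. Dbp, a transcription factor of the circadian output (chromosome 7), came next at r = -0.85, with 41.2 to 228 CPM for High Drinker, against 48.1 to 225 CPM for Low Drinker. The rest of the lowest 12 were Gpank1, Slc25a1, the mitochondrial citrate carrier, Chmp2a, a subunit of the ESCRT-III membrane-cutting complex, Ppp1ca, a catalytic subunit of protein phosphatase 1, the GTPase Hras, the lipid-transfer protein Stard10, Tmem41a, the mitochondrial kinase Dguok, Rbck1, a subunit of the linear ubiquitin ligase complex, and Gmpr, a GMP reductase at r = -0.84. None of these 24 genes was called for line, with adjusted p between 0.182 and 0.963 (edgeR). For so few genes that is near the background of 3.94% of all tested genes.

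The same genes tracked Mpdz within each line and each larger sheet set. They were chosen by r over all 84 libraries, which include these subsets, so this is a description and not a separate check. For the highest 12, r ran between 0.82 and 0.89 in High Drinker animals alone and between 0.80 and 0.89 in Low Drinker animals alone. For the lowest 12 it ran between -0.87 and -0.80 for High Drinker alone, against -0.89 and -0.82 for Low Drinker alone. In sheet set 1 the highest 12 lay between 0.84 and 0.91, and in sheet set 2 between 0.82 and 0.89. Of the 100 genes with the highest r, 69 were also among the highest 100 in High Drinker animals alone, and 65 in Low Drinker animals alone. Their median summed exon length was 7964.5 bases, against 2166.5 bases for the 100 with the lowest r. Mpdz itself, at 12437 bases, is among the longest 10% of tested genes, whose median is 10310 bases. The median r with Mpdz was -0.19 among the shortest 10% of genes by exon length and 0.29 among the longest 10%, and over libraries Mpdz correlated with the length trend at r = 0.59 (rho = 0.55; permutation test, adjusted p = 2e-05 for each, over 2 library measures). That r was 0.54 without the 2 libraries farthest from the median of the trend, 0.58 in High Drinker animals, 0.61 in Low Drinker animals, and 0.65 in sheet set 1 and 0.51 in sheet set 2. With total count, Mpdz had r = 0.17 (rho = 0.18; permutation test, adjusted p = 0.13 for r), r = 0.14 without the 2 farthest libraries, 0.35 for High Drinker animals, against -0.12 for Low Drinker animals, 0.32 in sheet set 1 and -0.07 in sheet set 2.

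**Figure D3:**
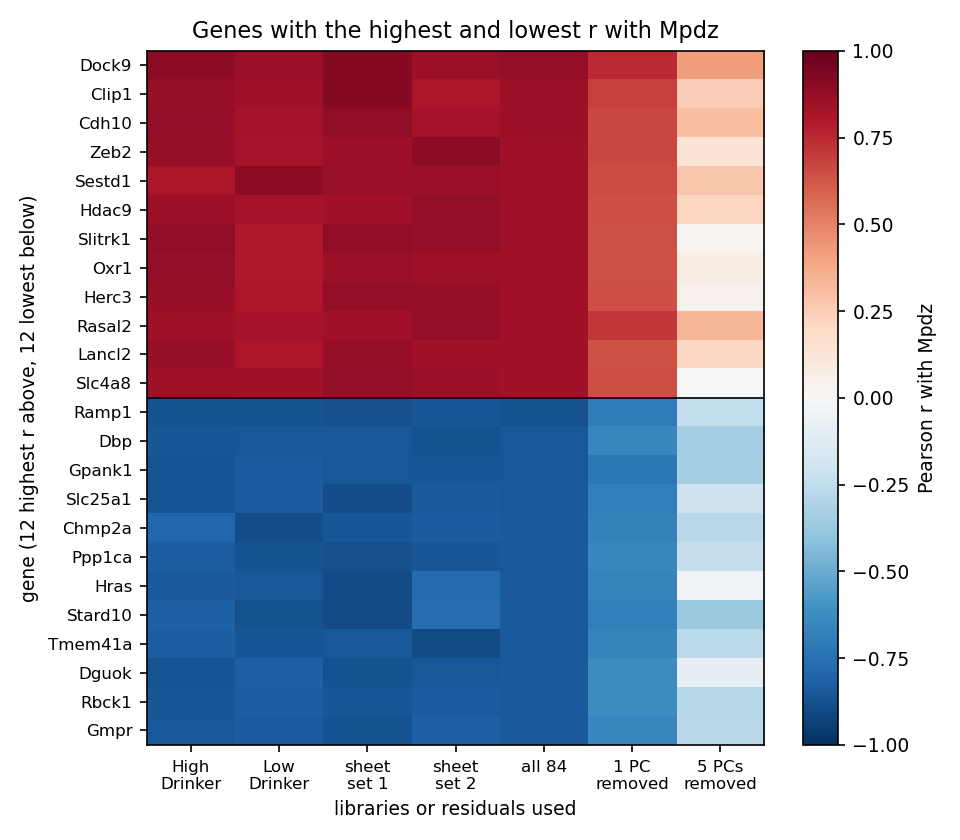
Pearson r with Mpdz (colour) of the 12 genes with the highest and the 12 with the lowest r, in High Drinker animals, Low Drinker animals, sheet sets 1 and 2, all 84 libraries, and after removing the first 1 or 5 principal components (PCs). The 4 subsets, which are parts of the 84 libraries used to choose the genes, give the same signs at r of 0.76 or more in size. Removing 5 PCs brings all 24 genes to 0.42 or less in size.

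Mpdz itself moved along the first 2 of the main axes on which the libraries differed. The first principal component of the residuals held 25.2% of their variance and correlated with Mpdz at 0.72 in size, and the second held 7.51% and correlated at 0.49. After removing the first, the highest 12 genes still lay between 0.64 and 0.75 and the lowest 12 between -0.72 and -0.63. Dock9 kept the highest r at 0.75 and Slc4a8 stood at 0.65. After removing 5, Dock9 stood at 0.42, Rasal2 at 0.33 and Slc4a8 at 0.0036, and only 3 of the 100 highest genes were shared with the 100 found without removal.

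Mpdz went with cell type markers of cortex and against those of striatum. Bulk tissue cannot tell fewer cells of a type apart from less RNA per cell. All 12 marker lists had every member tested. Markers of the labelled tissue were present in every library: the 10 general medium spiny neuron markers summed to between 1146.1 and 13703 CPM in High Drinker libraries (median 4874) and between 760 and 11256 CPM in Low Drinker libraries (median 4236). The 7 markers of cortical glutamatergic neurons were present as well, at 148 to 2597 CPM (median 1561) for High Drinker, against 401 to 3097 CPM (median 1617.5) for Low Drinker. The striatal phosphoprotein gene Ppp1r1b (DARPP-32) varied from 133 to 2696 CPM in High Drinker libraries, against 81.4 to 2221 CPM in Low Drinker libraries. Slc17a7, the vesicular glutamate transporter of cortical neurons, varied from 94.4 to 1968 CPM in High Drinker libraries, against 279 to 2514 CPM in Low Drinker libraries.

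Over the 84 libraries, residual Mpdz correlated with the score of the cortical glutamatergic list at r = 0.74 (rho = 0.71; permutation test, adjusted p = 2.4e-05 for r over 12 lists, the smallest that the permutations allow there). Each of the 7 markers had a positive r, between 0.62 and 0.73, the highest being that of Tbr1, a transcription factor of deep-layer cortical neurons. With the general medium spiny neuron score it correlated at r = -0.68 (rho = -0.69; permutation test, adjusted p = 2.4e-05 for r), and 10 of 10 markers had a negative r. For the direct pathway, whose neurons carry the dopamine receptor gene Drd1, r was -0.58 (rho = -0.59), and for the indirect pathway, whose neurons carry Drd2, it was -0.68 (rho = -0.74; permutation test, adjusted p = 2.4e-05 for r of each). A negative r was held by 4 of 5 direct pathway markers, the exception being Eya1 at 0.20, and by 5 of 5 indirect pathway markers. Both directions held within each line: with the cortical score r was 0.80 for High Drinker animals, against 0.67 for Low Drinker animals, and with the medium spiny neuron score it was -0.77 for High Drinker, against -0.59 for Low Drinker. In sheet sets 1 and 2 r was 0.80 and 0.74 with the cortical score, -0.74 and -0.61 with the general score, -0.63 and -0.56 with the direct pathway score, and -0.76 and -0.61 with the indirect pathway score. Without the 2 libraries farthest from the median of the score, r was 0.72 for the cortical list and -0.66, -0.60 and -0.68 for the general, direct pathway and indirect pathway lists.

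**Figure D4:**
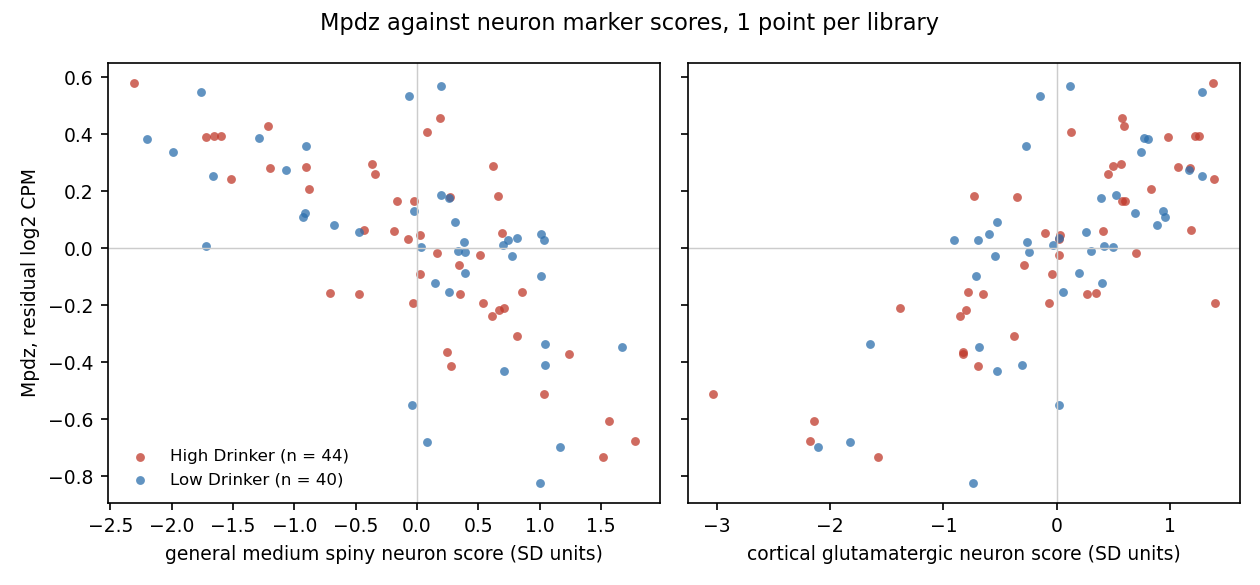
Residual log2 CPM of Mpdz (vertical axis) against the score of 10 medium spiny neuron markers (left) and of 7 cortical glutamatergic neuron markers (right), 1 point per library, High Drinker red and Low Drinker blue. Mpdz falls with the left score (r = -0.68) and climbs with the right one (r = 0.74). Line was removed from both axes, so the lines centre on the same point by construction.

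Of the other lists, those of striatal interneurons (r = -0.44, rho = -0.44), ependyma and choroid plexus (r = -0.49, rho = -0.46), blood (r = -0.40, rho = -0.39), microglia (r = -0.29, rho = -0.28) and astrocytes (r = 0.35, rho = 0.39) also passed an adjusted p of 0.05 in the permutation test of r, and without the 2 farthest libraries their r were -0.39, -0.45, -0.38, -0.29 and 0.35. In that order their adjusted p for r were 6e-05, 2.4e-05, 0.000394, 0.0113 and 0.00141. In sheet sets 1 and 2 their r were -0.33 and -0.59, -0.47 and -0.56, -0.42 and -0.34, -0.34 and -0.25, and 0.49 and 0.09, so that of astrocytes was near 0 in sheet set 2. Members were mixed in part: a negative r was held by 5 of 7 interneuron markers, with Pvalb at 0.30 and Kit at 0.17, by 8 of 8 of ependyma and choroid plexus, by 5 of 5 of blood, by 5 of 6 of microglia and by 1 of 7 of astrocytes. Those of oligodendrocytes (r = -0.22, rho = -0.17, adjusted p = 0.0552), oligodendrocyte precursors (r = 0.06, rho = 0.09, adjusted p = 0.601) and endothelial and mural cells (r = -0.20, rho = -0.27, adjusted p = 0.0684) did not, by the same permutation test, though the endothelial and mural list passed by rho (permutation test, adjusted p = 0.0157). In sheet sets 1 and 2 the r of these 3 lists were -0.43 and -0.03, 0.12 and -0.12, and -0.29 and -0.08. That of oligodendrocytes passed in sheet set 1 (permutation test, adjusted p = 0.0035). No marker of the neuronal lists was called for line in edgeR, and Cspg4 of the precursor list was, against 3.94% of all tested genes. With so few markers, these counts do not set the lists apart from that background.

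The genes that tracked Mpdz were spread over the genome. Of the 100 with the highest r, which lay on 20 chromosomes, 10 were on chromosome 4 and 2 lay within 10 Mb of Mpdz, and chromosome 4 holds 6.24% of the other tested genes. The window of 10 Mb on either side holds 37 of the 17070 other tested genes, a small share beside which these counts should be read. Of the 100 with the lowest r, 7 were on chromosome 4 and 0 lay within 10 Mb. For line, 1 of the highest 100 was called, higher in High Drinker animals, and 0 of the lowest 100 (edgeR, background 3.94%). In High Drinker animals alone 5 of the highest 100 were on chromosome 4, and in Low Drinker animals alone 9. After removing 5 principal components 19 of the highest 100 were on chromosome 4 and 5 of those lay within 10 Mb, and 11 of the 100 were called for line, all 11 higher in High Drinker animals (background 1.86%). Of the lowest 100 after that removal 13 were on chromosome 4 and 1 lay within 10 Mb, and 11 were called, all 11 lower (background 2.08%).

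Within 10 Mb of either end of Mpdz 37 genes were tested, and 1 was called, or 2.70% against 3.94% of all genes. It was Ccdc171, a coiled-coil protein gene 2083 kb away (chromosome 4, 83525545 to 83864670). Ccdc171 was low, at 0.765 to 4.69 CPM with a median of 2.39 CPM in High Drinker libraries and 0.700 to 4.38 CPM with a median of 1.36 CPM in Low Drinker libraries. Its log2 fold change was 0.52 ± 0.14 (SE, edgeR, adjusted p = 0.0201), and 37 of 44 High Drinker libraries lay above the Low Drinker median. It did not pass within sheet set 2 or within either sex alone (edgeR, adjusted p between 0.117 and 0.758). Its log2 fold change there was 0.62 in sheet set 2, 0.74 in females and 0.51 in males. The 37 neighbours as a group were balanced, with 20 fold changes above 0 and a median log2 fold change of 0.0021. Klhl9, an adaptor of a ubiquitin ligase, and Adamtsl1, a secreted matrix protein gene, came next with log2 fold changes of 0.14 (edgeR, adjusted p = 0.052) and 0.24 (edgeR, adjusted p = 0.0599); they were named after their values were seen.

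Among the neighbours r with Mpdz ran between -0.69 and 0.83. The 5 highest were Ttc39b, a tetratricopeptide repeat gene (r = 0.83), the receptor tyrosine phosphatase gene Ptprd (r = 0.79), Sh3gl2, which encodes endophilin A1 of synaptic vesicle endocytosis (r = 0.76), Elavl2, a neuronal RNA-binding protein gene (r = 0.73), and Zdhhc21, a palmitoyltransferase gene (r = 0.72). Ttc39b, 1778 kb away, stood at 37.4 to 126 CPM with a median of 68.4 CPM in High Drinker libraries, against 27.8 to 102 CPM with a median of 66.3 CPM in Low Drinker libraries, and its line difference did not pass (log2 fold change 0.18 ± 0.08, edgeR, adjusted p = 0.235). The median of Ptprd was 225 CPM in High Drinker libraries, against 238 CPM in Low Drinker libraries, and that of Sh3gl2 was 265 CPM for High Drinker, against 271 CPM for Low Drinker.

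With 5 principal components removed, a high r with Mpdz was found in a larger share of the neighbours than of genes farther away, a description with no test. An r above 0.3 was then held by 6 of the 37 genes within 10 Mb (16.2%), against 3.03% of 66 genes at 10 to 20 Mb, 3.60% of 333 at 20 to 40 Mb, 2.06% of 630 farther along chromosome 4 and 1.72% of 16004 on other chromosomes. Ccdc171 then had the highest r of all tested genes, at 0.65, though its r before removal was 0.33. Ttc39b stood at 0.48, and Dennd4c, Adamtsl1, Kdm4c and Klhl9, named after their values were seen, at 0.44, 0.43, 0.37 and 0.33. The fold changes of these 6 genes between the lines were all above 0, but only Ccdc171 was called. The others had adjusted p between 0.052 and 0.485 (edgeR). The residuals used for r have line removed, and why these neighbours had a high r was not tested. Without removal 35.1% of the neighbours and 27.1% of genes on other chromosomes were above 0.3. In the opposite direction 1 neighbour lay below -0.3 after removal, the transcription factor gene Nfib at -0.40. Beyond 10 Mb on the same chromosome, 5 genes were among the 12 averaging 5 CPM or more with the highest r after removal: Tceanc2 (r = 0.51), Macf1, a giant cytoskeletal linker (r = 0.50), Mdn1, of ribosome assembly (r = 0.49), Agrn, which encodes the matrix proteoglycan agrin (r = 0.45), and Tut4, a terminal uridylyltransferase gene (r = 0.45). These 5 and Nfib were named after their values were seen. Of the 5, Mdn1, Agrn and Tut4 were not called (edgeR, adjusted p between 0.319 and 0.972), while Tceanc2 (log2 fold change 0.76, adjusted p = 0.00559) and Macf1 (log2 fold change 0.15, adjusted p = 0.0401) were called higher in High Drinker animals in edgeR.

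**Figure D5:**
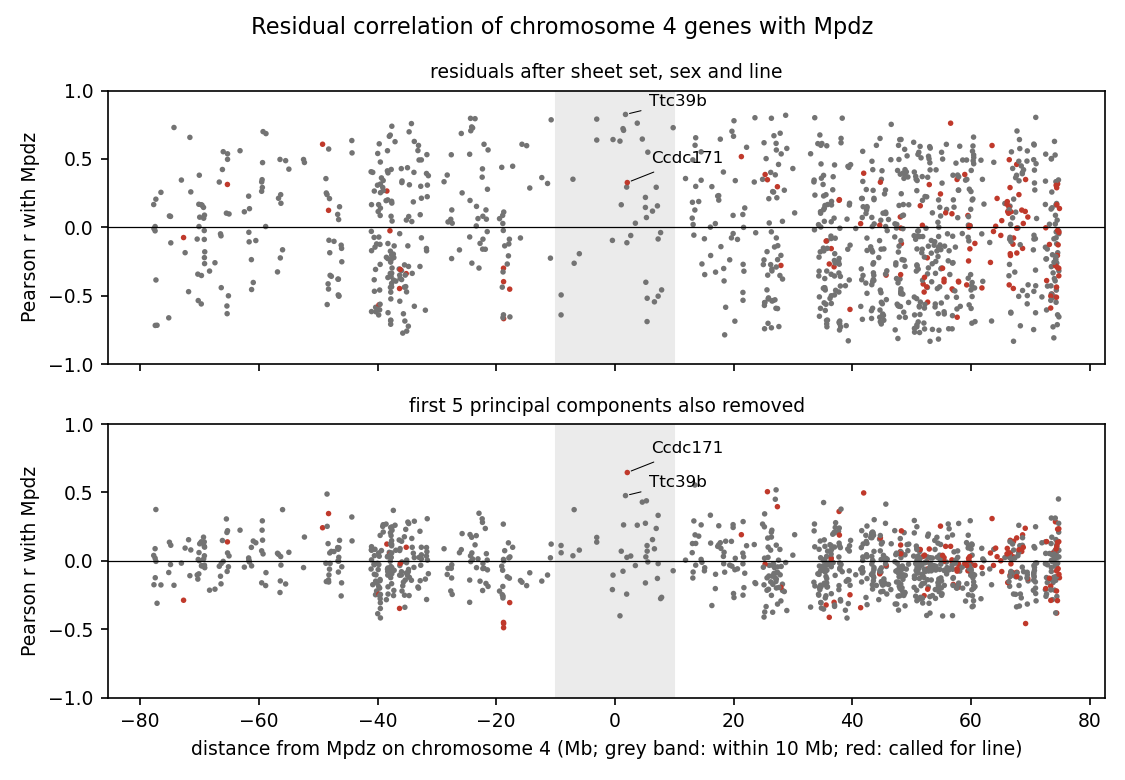
Pearson r with Mpdz of the other tested genes on chromosome 4 (vertical axis) by distance from Mpdz in Mb (horizontal axis; the grey band is 10 Mb on either side), before (top) and after (bottom) removing 5 principal components; red points were called for line. Ccdc171 stands highest in the lower panel at 0.65, with Ttc39b at 0.48.

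Of the known partners of MUPP1, 1 passed the line test. Of 21 genes on a list of binding partners, 17 were tested, 1 was called higher and 0 lower in High Drinker animals (backgrounds 1.86% and 2.08%), and the median log2 fold change was 0.05 against 0.0013 over all genes. The called partner was Cspg4, which encodes the NG2 proteoglycan, a surface protein of oligodendrocyte precursors and pericytes. Cspg4 ran from 17.2 to 37.9 CPM with a median of 24.1 CPM in High Drinker libraries and from 15.5 to 27.97 CPM with a median of 20.8 CPM in Low Drinker libraries, a log2 fold change of 0.21 ± 0.05 (SE, edgeR, adjusted p = 0.00344). Its r with Mpdz was 0.13. It did not pass within either sheet set or sex alone (edgeR, adjusted p between 0.097 and 0.285). Its log2 fold change was 0.18 and 0.315 in sheet sets 1 and 2, 0.22 in females and 0.23 in males. The serotonin receptor gene Htr2c stood at a median of 89.7 CPM in High Drinker libraries, against 84.02 CPM in Low Drinker ones (log2 fold change 0.12 ± 0.19, edgeR, adjusted p = 0.795, r = -0.27), and Htr2a at 23.9 CPM in High Drinker libraries, against 22.2 CPM in Low Drinker ones (log2 fold change 0.28 ± 0.12, edgeR, adjusted p = 0.194, r = 0.65). Both receptor genes were added after their values were seen.

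Partners differed widely in how they went with Mpdz. An r above 0.5 was held by 7 of the 17 (41.2%), against 13.5% of all genes. The highest were Gabbr2, the GABA-B receptor subunit gene, at r = 0.76 and Sstr3, a somatostatin receptor gene, at r = 0.70. Gabbr2 ran from 93.0 to 569 CPM in High Drinker libraries, against 132 to 624 CPM in Low Drinker libraries. The lowest were Camk2b, the beta subunit of the calcium/calmodulin-dependent kinase, at r = -0.64 and F11r, the junctional adhesion molecule JAM-A, at r = -0.34. Camk2b was abundant, at 941 to 1793 CPM in High Drinker libraries, against 959 to 1630.5 CPM in Low Drinker libraries.

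On a list of 38 genes of apical polarity and tight junctions, 37 were tested, 0 were called higher and 1 lower (backgrounds 1.86% and 2.08%), and the median log2 fold change was 0.01. The called gene was Marveld2, which encodes tricellulin of the junctions where 3 cells meet. Marveld2 was near the limit of detection, at 0.314 to 1.57 CPM with a median of 0.694 CPM in High Drinker libraries, against 0.447 to 1.86 CPM with a median of 1.04 CPM in Low Drinker libraries, a log2 fold change of -0.49 ± 0.11 (SE, edgeR, adjusted p = 0.00417), and its r with Mpdz was -0.04. It did not pass within either sheet set or sex alone (edgeR, adjusted p between 0.0984 and 0.763). Its log2 fold change was -0.54 and -0.40 in sheet sets 1 and 2, -0.43 in females and -0.585 in males. The adhesion gene Nectin3 (r = 0.78) and Afdn, which encodes the nectin-binding afadin (r = 0.75), went most closely with Mpdz, and the polarity genes Crb3 (r = -0.66) and Pard3 (r = -0.64) most strongly against it. Afdn stood at a median of 126 CPM in High Drinker libraries, against 118 CPM in Low Drinker libraries, while the median of Crb3 was 0.398 CPM for High Drinker, against 0.517 CPM for Low Drinker.

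On a list of 48 PDZ scaffolds and their associates, 47 were tested and 0 were called in either direction (backgrounds 1.86% and 2.08%); adjusted p for its members covers all genes, and the median log2 fold change was 0.04. Magi1, a membrane-associated guanylate kinase with inverted domains (r = 0.84), and Apba1, which encodes the presynaptic adaptor Mint1 (r = 0.83), went most closely with Mpdz. Magi1 ran from 58.4 to 135 CPM with a median of 98.5 CPM in High Drinker libraries, against 60.4 to 132 CPM with a median of 99.4 CPM in Low Drinker libraries. Gripap1, an associate of the scaffold GRIP1 (r = -0.73), and Pals2, listed in the annotation as Mpp6 (r = -0.58), went against it. An r above 0.5 was held by 31.9% of this list and 10.8% of the junction list, against 13.5% of all genes. These r were smaller in size once the main axes of the libraries were taken out: after removing 5 principal components Magi1 stood at 0.17, Apba1 at -0.02, Gripap1 at 0.02 and Pals2 at -0.01. After that removal r lay between -0.18 and 0.23 for the partners, between -0.39 and 0.325 for the junction list and between -0.21 and 0.325 for the scaffolds. No member of the 3 lists was above 0.5. That is not particular to the lists, because the 100th highest r over all tested genes was then 0.36. Gabbr2 stood at -0.14, Sstr3 at -0.12, Camk2b at -0.15, Nectin3 at 0.11, Afdn at 0.18, Crb3 at -0.24 and Pard3 at -0.21.

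Patj, the paralog, had a negative r with Mpdz and no line difference that passed. Per kilobase of exon it was lower, at 1.22 RPKM against 4.82 RPKM for Mpdz over all libraries. Patj ran from 5.33 to 23.2 CPM with a median of 15.9 CPM in High Drinker libraries and from 6.94 to 74.1 CPM with a median of 15.5 CPM in Low Drinker libraries. The lines overlapped, and the log2 fold change was -0.07 ± 0.11 (SE, edgeR, adjusted p = 0.803). Its r with Mpdz was -0.33 over all libraries, -0.32 for High Drinker alone and -0.33 for Low Drinker alone.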

How the data were processed

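RNA of hand-dissected ventrolateral striatum was amplified to cDNA with an Ovation kit and sequenced 6 libraries per lane as single-end reads of 100 bases, per the labels' protocols. Raw counts of reads in each gene were deposited by the authors for 84 animals, and the gene lengths used here for RPKM come from the same table, per the file headers. FastQC, STAR, featureCounts of Subread and edgeR were used with build mm10, per the submitters' processing notes. Tool versions, strandedness and the handling of multi-mapping reads were not given in the sources used here. Whether reads from overlapping genes on opposite strands were kept apart is therefore not known. Rows that name no gene were 0, a share of 0%.

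Line, sex and their interaction were tested with edgeR 4.0.16 under R 4.3.3 (TMM, filterByExpr, quasi-likelihood test, Benjamini-Hochberg over 17071 genes, threshold 0.05), and spread used limma 3.58.1. DESeq2 1.42.0, limma-voom and 5 surrogate variables of sva 3.50.0 were alternatives. Named genes followed a rule: the 12 highest and 12 lowest r among genes averaging at least 5 CPM with an established symbol, called genes and the 5 highest r within 10 Mb, called members and the 2 highest and 2 lowest r of each of 3 lists, and Patj. Genes outside the rule are marked as added, apart from marker genes. The members, lists and rule were chosen with earlier results of these data known. The line and correlation steps were tested on simulated data. Plots used Python 3.11.15 and matplotlib 3.10.9. Each animal gave 1 library, so the spread includes that of dissection and library preparation.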

Additional observations from a re-analysis of the deposited data

How the results depend on the processing

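The log2 fold change of Mpdz was above 0 in all 16 alternatives, from 0.136 to 0.366 (adjusted p between 7.99e-05 and 0.95), and passed in 10. It did not pass without the sheet set term (0.219), with the length trend (0.161), in sheet set 1 (0.366), sheet set 2 (0.136), females (0.304) or males (0.214) alone. The unadjusted edgeR p was 0.000387 in sheet set 1, below the 0.000755 of the main fit, 0.00348 in females, 0.067 in males and 0.29 in sheet set 2. The adjustment runs over all genes tested in each fit, and fewer genes were called in these subsets. Why the estimates differed was not tested. The sex difference of Mpdz, near 0, changed sign to 0.00349 with limma-voom, 0.0569 with surrogate variables, 0.0484 with the medium spiny neuron score, 0.0146 and 0.0188 in sheet sets 1 and 2, and 0.0536 without the 5 libraries that stood apart. The interaction changed sign to -0.0409 with the medium spiny neuron score, and the spread to -0.00339 in sheet set 2. None of these passed. The share of genes called for line, 3.94%, was 7.15% with surrogate variables, 0.459% (79 genes) in each of sheet sets 1 and 2, 0.212% in females, 0.652% in males and 2.49% without the 5 libraries. Called neighbours, 1, were 3 with DESeq2, without the set term or without sheet set 3, 2 with limma-voom or the length trend, 4 with surrogate variables, 5 with the medium spiny neuron score, and 0 in sheet set 2, females or males. Called partners, 1, were 2 without the set term and 0 in either sheet set or sex. Called junction genes, 1, were 3 without the set term, 2 with the medium spiny neuron score or without sheet set 3, and 0 in either sheet set or sex. Called scaffolds, 0, were 1 without the set term or sheet set 3, and 2 with surrogate variables or the medium spiny neuron score. Of the 100 highest genes, 22 were shared after removing 1 component, 3 after removing 5, 51 with the length trend removed, and 65 in Low Drinker animals or in sheet set 2. Those on chromosome 4, 10, were 4 and 19 after removing 1 and 5 components, 5 in High Drinker animals and 6 in sheet set 1 or 2. The r with oligodendrocyte precursors changed sign to -0.0843 in High Drinker animals and -0.119 in sheet set 2. The number of marker lists that passed stayed within 1.5 times 9. No paired analysis was possible because the labels number no replicates across the lines, and numbers given in accession order pair nothing.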
